A study of Mus musculus with 12 samples.

Results

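The genes described here encode proteins that coat lipid droplets or control the entry and release of their fat in the liver: Plin2, Plin4, Plin5, Cidea, Cideb, Cidec, Hsd17b13, G0s2, Pnpla2 and Cd36. They were chosen by gene symbol, and the 10 members stand among 36047 genes in the files. All 10 passed the filter on low counts, Cidea through SAAR mice alone, with 15061 features tested in all. Liver RNA was sequenced from 12 male C57Bl/6J mice, 5 to 6 months old, after 7 days on the diets, with 3 mice in each of 4 groups. Per the study's methods, food was withheld for 4 h before the mice were killed. The study's mice were also given deuterium-labelled water, by injection and for drinking. RF.Ctrl mice ate a regular-fat control diet, with 18% of energy from fat, and RF.SAAR mice ate a regular-fat diet restricted in sulfur amino acids (SAAR), in which methionine was lowered. HF.Ctrl and HF.SAAR mice ate the corresponding high-fat diets, with 60% of energy from fat. None of the 4 diets held cysteine, so the control diets shared that feature with the restricted ones. The regular-fat and high-fat diets came from different suppliers, so fat level and supplier cannot be told apart. Each mouse was kept in a cage of its own, and p-values measure the spread between these mice.

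Hepatocytes store surplus fatty acids as triglyceride in droplets with a protein coat. The perilipins (Plin2, Plin4, Plin5) and the CIDE proteins (Cidea, Cideb, Cidec) sit on or at that coat, where perilipins limit access of lipases and CIDE proteins help droplets or lipoproteins take up lipid. Hsd17b13 is a hepatocyte enzyme found on the droplet surface. Pnpla2 encodes adipose triglyceride lipase, which starts the breakdown of stored triglyceride, G0s2 encodes its inhibitor, and Cd36 encodes a fatty acid transporter of the plasma membrane. Several of these genes are known targets of PPARalpha, a nuclear receptor that senses fatty acids in the fasting liver.

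Averaged over both fat levels, Hsd17b13, Cd36, Plin4 and Plin5 were called higher under SAAR, 4 of 10 members against 3.15% of all features. No member was called lower, against 3.67% of all features. Members were chosen with earlier results of these data known, so these shares are a description. Hsd17b13 was also called within each fat level, 1.45-fold higher in RF.SAAR vs. RF.Ctrl, hereafter the regular-fat comparison (0.578% of all features called higher), and 1.65-fold higher in the high-fat comparison of HF.SAAR with HF.Ctrl (0.956%). The remaining 6 members, among them the lipase Pnpla2 and its inhibitor G0s2, did not pass the test in any of the 7 comparisons. A call means an adjusted p below 0.05 in edgeR's quasi-likelihood test after Benjamini-Hochberg adjustment over all 15061 features, unless another tool or fit is named.

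The livers differed little in depth, with 16203094 to 21230092 estimated counts per mouse. The hepatocyte marker Alb, which encodes serum albumin, stood between 49834 and 69000 CPM (counts scaled by library size and by TMM factors between mice) in every mouse. All 8 hepatocyte markers were detected in all 12 mice, and their summed level in CPM was 92385 to 105441 in RF.Ctrl, 79545 to 87620 in RF.SAAR, 87275 to 100058 in HF.Ctrl and 81959 to 93914 in HF.SAAR. Serpina1c and Fgb of that list were called lower under SAAR over both fat levels. Among markers of other liver cells, Lrat of the 8 stellate cell markers was called lower in the regular-fat comparison and over both fat levels, Lyve1 of the 6 endothelial markers was called higher over both, and 0 of 10 Kupffer cell and macrophage markers were called in any SAAR comparison. In single mice the stellate markers were summed to 229 to 300.8 CPM, the endothelial markers to 214 to 253 CPM and the Kupffer cell markers to 327.9 to 510.4 CPM, ranges that overlapped between all groups. Their part in the members was not tested. In whole liver, fewer cells of a type and less RNA per cell cannot be told apart. Markers of pancreatic acinar cells, 18 of 18 detected, were summed to over 1000 CPM in 5 mice (RF.Ctrl mouse 1, HF.Ctrl mice 1 and 2, HF.SAAR mice 2 and 3) and reached 12200 CPM. In the other 7 mice the sum was 34.95 to 69.38 CPM. The 6 skeletal muscle markers were detected in all mice, summed to 248.8 to 785 CPM.

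Members spanned several orders of magnitude in level. The levels are given in TPM, the deposited unit that divides by transcript length and so allows genes to be compared. Hsd17b13 was the highest member in every group, with a mean of 406 ± 21.3 TPM (SD, n = 3) in RF.Ctrl and 740 ± 80.0 in HF.SAAR. Plin2, the main droplet coat protein of hepatocytes, came next at 306 ± 59.3 TPM in RF.Ctrl and 561 ± 155 in RF.SAAR. The ranges of Hsd17b13 and Plin2 overlapped in RF.SAAR and were apart in the other 3 groups. Cideb, the CIDE protein of hepatocytes, came after Plin2 in each group, between 209.6 and 310 TPM in single mice, and overlapped Plin2 in RF.Ctrl. G0s2, Pnpla2, Cd36 and Plin5 formed a middle tier, with group means from 18.1 to 141 TPM, and each of these neighbours in the order overlapped in at least 1 group. Cidec had group means from 7.499 to 15.7 TPM, Plin4 from 1.08 to 3.93 TPM and Cidea from 0.155 to 2.99 TPM. Plin4 and Cidea overlapped in both regular-fat groups.

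On the TPM scale the median feature was higher under SAAR, which bears on any fold read from TPM. On log2(TPM + 1), the median over the 15061 features was 0.18 in the regular-fat comparison and 0.23 in the high-fat comparison. The corresponding medians were -0.0016 and -0.0016 with TMM factors. Fold changes below are therefore on CPM with TMM factors, and TPM is used for levels only.

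The 4 promoters of the called members are printed because these genes were called higher together. They are RefSeq windows of GRCm38.p6, 250 bases before to 50 bases after a gene start, read 5′ to 3′ along the gene. Capitals mark matches on either strand to the nuclear receptor half-site AGGNCA or to TGATGNAA, a composite site known for the factor ATF4. RefSeq lists a further window for Plin5, with 3 half-sites, which is not shown, and the Cd36 window lies within the span of the gene, at a start downstream of its first annotated base.
Hsd17b13, chr5:103977339-103977638, minus strand: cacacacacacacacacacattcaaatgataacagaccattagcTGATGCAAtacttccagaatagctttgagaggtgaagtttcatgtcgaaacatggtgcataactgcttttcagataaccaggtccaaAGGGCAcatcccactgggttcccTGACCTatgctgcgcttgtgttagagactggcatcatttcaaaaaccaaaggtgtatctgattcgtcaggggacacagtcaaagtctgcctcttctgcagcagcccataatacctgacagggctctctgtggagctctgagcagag
Cd36, chr5:17835847-17836146, minus strand: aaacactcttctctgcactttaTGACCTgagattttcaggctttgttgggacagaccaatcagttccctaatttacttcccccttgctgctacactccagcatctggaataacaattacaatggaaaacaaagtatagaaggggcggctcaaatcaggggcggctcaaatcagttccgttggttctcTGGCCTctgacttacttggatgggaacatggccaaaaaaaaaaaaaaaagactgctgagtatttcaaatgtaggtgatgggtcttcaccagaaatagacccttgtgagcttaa
Plin5, chr17:56117499-56117798, minus strand: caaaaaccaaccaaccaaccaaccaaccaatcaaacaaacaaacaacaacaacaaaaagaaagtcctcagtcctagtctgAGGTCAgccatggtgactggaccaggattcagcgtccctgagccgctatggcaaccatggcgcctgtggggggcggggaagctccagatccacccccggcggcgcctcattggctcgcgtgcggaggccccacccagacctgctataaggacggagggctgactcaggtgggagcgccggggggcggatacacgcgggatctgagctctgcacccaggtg
Plin4, chr17:56109733-56110032, minus strand: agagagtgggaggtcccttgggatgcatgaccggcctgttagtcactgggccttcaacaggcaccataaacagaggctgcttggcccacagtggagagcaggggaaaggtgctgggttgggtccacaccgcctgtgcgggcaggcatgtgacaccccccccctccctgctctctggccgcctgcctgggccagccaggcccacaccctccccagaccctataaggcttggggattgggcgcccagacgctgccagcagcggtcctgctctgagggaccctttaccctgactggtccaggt
The Hsd17b13 window held 2 half-sites and 1 match to TGATGNAA, the latter starting at base -206 relative to the gene start. The Cd36 window held 2 half-sites, the Plin5 window 1 and the Plin4 window neither motif. A half-site occurred in 57.2% of 32851 windows of this length, and TGATGNAA in 3.97%. Of the 9 members searched, which leaves out Cidea, 6 held a half-site in at least 1 window, against 60.5% of all genes with a window. Only Hsd17b13 held TGATGNAA, against 4.51% of those genes. The direct repeat of the half-site with 1 base between, the form that PPARs are known to bind, occurred in no window of the 9 members searched and in 0.381% of all windows. A match describes the letters only, and sites outside these windows were not searched.

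Within the regular-fat diets, the question was which members SAAR moved in mice without a fat challenge. Hsd17b13 was the 1 member called higher, against 0.578% of all features called higher and 0.863% called lower in the regular-fat comparison. Of the 10 members, 9 had a positive log2 fold change and 8 had an unadjusted p below 0.05, as did 2014 of all 15061 features. The median log2 fold change was 0.74 against -0.0016 over all features. These counts and the median include Cidea, which had to be high in SAAR mice to pass the filter, and with at least 10 counts required in every mouse, which leaves Cidea out, the members' median was 0.64. In 5 members (Plin4, Plin5, Hsd17b13, Pnpla2 and Cd36) every RF.SAAR mouse stood above every RF.Ctrl mouse, a pattern shown by 8.5% of all features. Within the high-fat diets, Hsd17b13 was again the 1 member called higher, against 0.956% of all features called higher and 0.949% called lower. Here 9 members had a positive log2 fold change, 4 had an unadjusted p below 0.05, as did 1883 of all features, and the median was 0.57 against -0.0016 (0.49 with the stricter filter). HF.SAAR mice stood wholly above HF.Ctrl mice in 4 members (Plin4, Plin5, Hsd17b13 and Cd36), against 8.85% of all features.

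The 4 genes called over both fat levels were also those whose SAAR mice stood above their Ctrl mice at both fat levels, a pattern held by 2.78% of features. The median log2 fold change of the members was 0.64 (0.63 with the stricter filter), against -0.0040 over all features. Calls of further members depended on the method, while RLE size factors called the same 4. With library size alone, which moved the median of all features by 0.17, Plin2 and Pnpla2 were called as well, and the split over all features went from 475 higher and 553 lower to 2288 higher and 278 lower. DESeq2 called the same 6 members, with 710 features higher and 678 lower and a median of -0.0087 over all features. On log2(TPM + 1), limma called those 6 and also Cidec, with 3455 features higher and 145 lower.

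**Figure D1:**
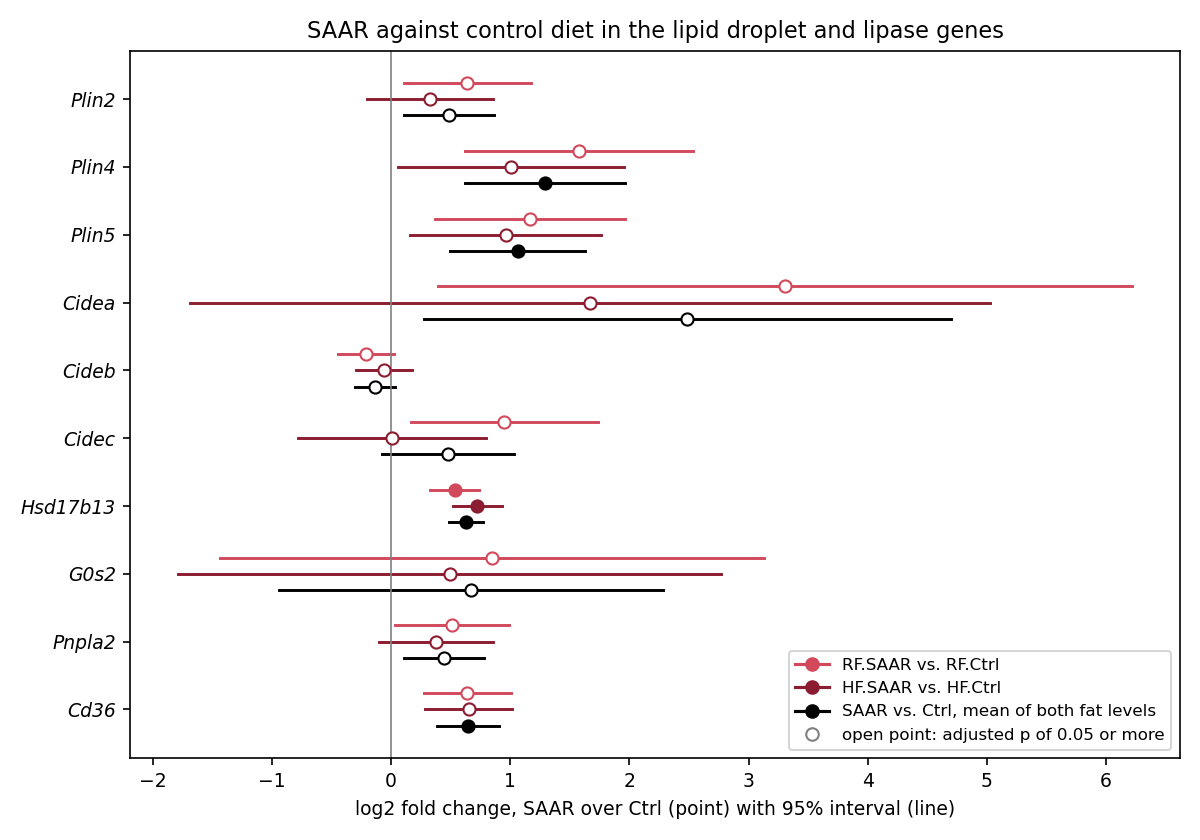
Log2 fold changes of SAAR over Ctrl for the 10 genes (x axis, log2 scale) with 95% intervals as lines, in the regular-fat comparison, the high-fat comparison and the mean of both, with filled points for adjusted p below 0.05. Hsd17b13 is filled in all 3 comparisons, Plin4, Plin5 and Cd36 only in the mean of both fat levels, and Cideb is the gene left of 0.

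Hsd17b13 (ENSMUSG00000034528, chr5:103955440-103977410, minus strand of GRCm38) separated the diets with little scatter. In RF.Ctrl the 3 mice had 476, 452 and 421 CPM, and in RF.SAAR 607, 689 and 660 CPM. In HF.Ctrl they had 455, 461 and 385 CPM, and in HF.SAAR 683, 732 and 733 CPM. All 6 SAAR mice were above all 6 Ctrl mice. The coefficient of variation within groups was 3.97% to 9.77%. The log2 fold change was 0.54 ± 0.096 (SE) in the regular-fat comparison (edgeR adjusted p = 0.0147) and 0.72 ± 0.096 in the high-fat comparison (edgeR adjusted p = 0.00149). Over both fat levels it was 0.63 ± 0.068 (edgeR adjusted p = 0.000134). The regular-fat call was lost on leaving out RF.Ctrl mouse 2 (edgeR adjusted p = 0.0620), RF.Ctrl mouse 3 (0.0747) or RF.SAAR mouse 3 (0.0574), with log2 fold changes of 0.49 to 0.54. Without the 5 mice with high pancreatic signal the log2 fold changes were 0.58 in the regular-fat and 0.81 in the high-fat comparison. That fit left HF.Ctrl mouse 3 and HF.SAAR mouse 1 alone in their groups, so no call is read from it. The call over both fat levels held whichever mouse was left out. A single transcript carried 98.4% of the counts of the gene. In a fit of all transcripts, adjusted over 36098 features, that transcript had a log2 fold change of 0.54 in the regular-fat comparison. It was not called there (edgeR adjusted p = 0.0729).

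Cd36 (ENSMUSG00000002944, chr5:17781690-17888801, minus strand) was called higher under SAAR over both fat levels and missed the threshold within each. RF.Ctrl mice had 61.0, 43.6 and 37.8 CPM and RF.SAAR mice 69.2, 76.3 and 76.7 CPM. HF.Ctrl mice had 64.9, 50.8 and 75.8 CPM and HF.SAAR mice 101, 107 and 93.5 CPM. SAAR and Ctrl mice did not overlap within either fat level, although HF.Ctrl overlapped RF.SAAR. The log2 fold change was 0.64 ± 0.17 in the regular-fat comparison (edgeR adjusted p = 0.0930) and 0.65 ± 0.17 in the high-fat comparison (edgeR adjusted p = 0.0751). Over both fat levels it was 0.65 ± 0.12, or 1.57-fold (edgeR adjusted p = 0.00613), and it stayed called on leaving out each mouse in turn. Leaving out RF.Ctrl mouse 1, the highest of its group, brought the regular-fat comparison to a log2 fold change of 0.86 (edgeR adjusted p = 0.0279). The same step also brought the high-fat comparison below the threshold (edgeR adjusted p = 0.0314). The counts were spread over 6 transcripts, the most abundant holding 37.1%. In the fit of all transcripts, adjusted over 36098 features, that transcript had a log2 fold change of 0.73 over both fat levels. It was not called (edgeR adjusted p = 0.203).

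Cd36 was also the member with the most separation by fat. Every HF.SAAR mouse stood above every RF.SAAR mouse, which was true of 1 of 10 members and of 5.46% of all features. The log2 fold change of HF vs. RF was 0.43 ± 0.12 over both diets, with an unadjusted p of 0.00304 in edgeR's test and an edgeR adjusted p = 0.385. The interaction of diet and fat for Cd36 was 0.012 on the log2 scale (95% interval -0.50 to 0.53).

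Plin4 and Plin5, neighbours on chromosome 17, showed the largest fold changes among the called members. Plin4 (ENSMUSG00000002831, chr17:56100591-56109803), a perilipin best known from adipose tissue and muscle, was low in liver. RF.Ctrl mice had 9.63, 2.48 and 6.31 CPM and RF.SAAR mice 10.5, 20.1 and 24.2 CPM. HF.Ctrl mice had 6.89, 9.18 and 6.63 CPM and HF.SAAR mice 18.6, 12.2 and 15.1 CPM. RF.SAAR mouse 1 lay just above the highest RF.Ctrl mouse, and its group was otherwise well apart. The log2 fold change was 1.58 ± 0.43 in the regular-fat comparison (edgeR adjusted p = 0.119) and 1.01 ± 0.43 in the high-fat comparison (edgeR adjusted p = 0.353). Over both fat levels Plin4 rose 2.45-fold, with a log2 fold change of 1.29 ± 0.30 (edgeR adjusted p = 0.0303).

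Plin5 (ENSMUSG00000011305, chr17:56111601-56117596) coats droplets in tissues that burn fat and links them to mitochondria. RF.Ctrl mice had 58.1, 37.4 and 24.1 CPM and RF.SAAR mice 70.0, 114 and 84.3 CPM. HF.Ctrl mice had 40.0, 49.1 and 25.0 CPM and HF.SAAR mice 80.3, 89.7 and 52.3 CPM. The groups did not overlap at either fat level, although HF.SAAR mouse 3 lay close to HF.Ctrl mouse 2. The log2 fold change was 1.17 ± 0.36 (edgeR adjusted p = 0.170) in the regular-fat comparison and 0.96 ± 0.36 (edgeR adjusted p = 0.279) in the high-fat comparison. Over both fat levels Plin5 rose 2.09-fold, with a log2 fold change of 1.06 ± 0.25 (edgeR adjusted p = 0.0341).

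The calls of Plin4 and Plin5 were close to the threshold. With no low-count filter neither was called (edgeR adjusted p = 0.0809 and 0.0869). Leaving out each mouse in turn kept the Plin4 call in 5 of 12 fits and the Plin5 call in 4 of 12. Both calls were lost without HF.Ctrl mouse 1, HF.SAAR mouse 1, RF.SAAR mouse 2, HF.Ctrl mouse 3, RF.Ctrl mouse 3 or RF.SAAR mouse 3, that of Plin4 also without HF.SAAR mouse 3, and that of Plin5 also without HF.SAAR mouse 2 or RF.Ctrl mouse 2. Adjusted p in edgeR's test reached 0.0819 for Plin4 without HF.Ctrl mouse 3, and 0.0832 for Plin5 without RF.Ctrl mouse 2. The log2 fold changes stayed between 1.10 and 1.54 for Plin4 and between 0.94 and 1.25 for Plin5. In the fit of all transcripts, adjusted over 36098 features, the most abundant transcript of Plin5 had a log2 fold change of 0.66 (edgeR adjusted p = 0.270). It held 63.4% of the counts of the gene. Without the 5 mice with high pancreatic signal the log2 fold change of Plin4 was 1.77, with HF.Ctrl mouse 3 and HF.SAAR mouse 1 alone in their groups. Both genes are also expressed in skeletal muscle, and the 6 muscle markers were summed to 249 to 549 CPM among RF.Ctrl mice, 302 to 785 in RF.SAAR, 287 to 601 in HF.Ctrl and 271 to 625 in HF.SAAR, ranges that overlapped between all groups. Their part in Plin4 and Plin5 was not tested. RF.SAAR mouse 3 had both the highest muscle sum and the highest Plin4, while RF.SAAR mouse 2 had the highest Plin5 with a muscle sum of 393 CPM.

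**Figure D2:**
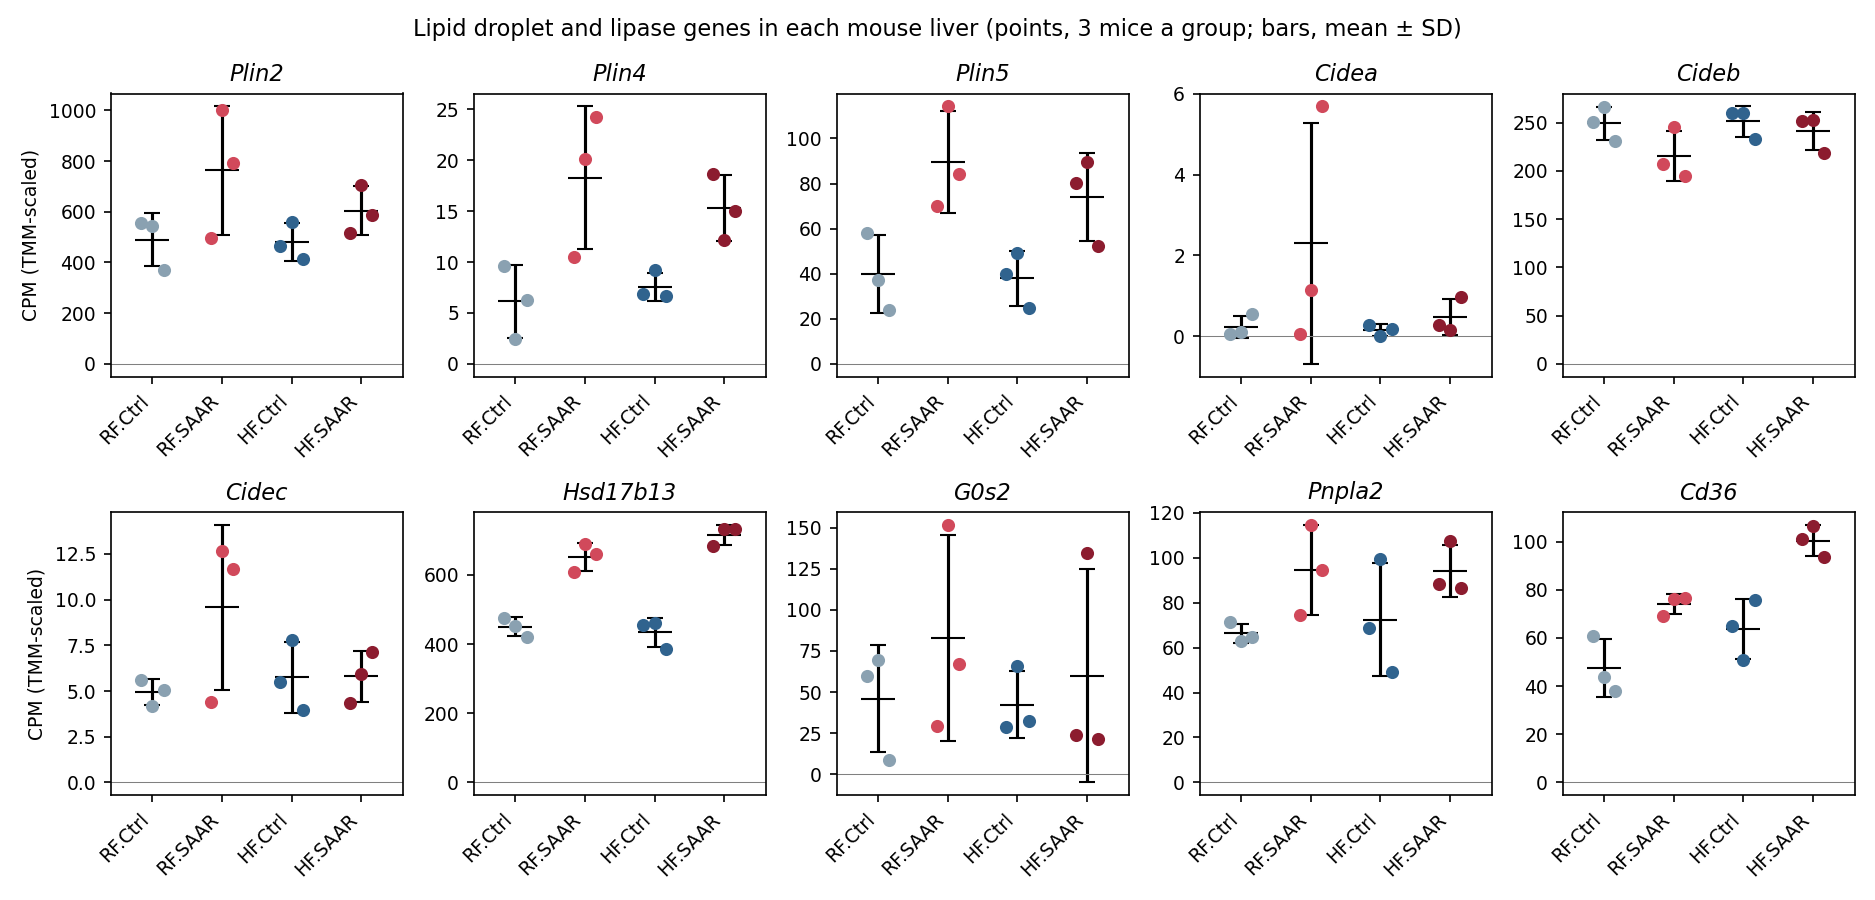
CPM with TMM factors (y axis, linear, a separate scale per gene) for each of the 10 genes in the 4 groups (x axis), with a point for each of 3 mice, a horizontal bar for the mean and whiskers for the SD. Hsd17b13, Cd36, Plin4 and Plin5 have SAAR mice above their Ctrl mice at both fat levels, while G0s2 scatters from 8.78 to 152 CPM.

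Plin2 (ENSMUSG00000028494, chr4:86648386-86670060, minus strand), the droplet coat protein that tracks stored fat in hepatocytes, had overlapping groups. RF.Ctrl mice had 555, 543 and 368 CPM and RF.SAAR mice 497, 999.9 and 792 CPM. HF.Ctrl mice had 463, 561 and 415 CPM and HF.SAAR mice 515, 706 and 589 CPM. RF.SAAR mouse 1 fell among the control mice, and the other 2 RF.SAAR mice were the highest of all 12. On the log2 scale the difference was 0.64 ± 0.24 (edgeR adjusted p = 0.262) in the regular-fat comparison, 0.33 ± 0.24 (edgeR adjusted p = 0.662) in the high-fat comparison and 0.49 ± 0.17 (edgeR adjusted p = 0.129) over both. The interval of the last, 0.11 to 0.86, lies above 0 before adjustment for the number of features. Without RF.SAAR mouse 1 the log2 fold change over both fat levels was 0.60 and was called (edgeR adjusted p = 0.0234).

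The 3 CIDE genes differed from each other. Cideb (ENSMUSG00000022219, chr14:55754050-55758458, minus strand), which takes part in the lipidation of very low density lipoprotein and is abundant in hepatocytes, had overlapping groups. It stood at 231 to 266 CPM among RF.Ctrl mice, 195 to 245 in RF.SAAR, 233 to 260 in HF.Ctrl and 218 to 253 in HF.SAAR. Its log2 fold change over both fat levels was -0.13 (95% interval -0.30 to 0.032, edgeR adjusted p = 0.366). The sign depended on the scale, since library size alone gave 0.035 (0.067 with effective-length offsets) and log2(TPM + 1) gave 0.16, so no direction is drawn. The exons of Cideb share 76.3% of their bases with the opposite-strand gene Nop9. Nop9 stood at 4.63 to 7.40 TPM, far below Cideb, and the library's strand setting is not given in the sources used here.

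Cidec (ENSMUSG00000030278, chr6:113424634-113435760, minus strand), which drives fusion of droplets in adipocytes and fatty liver, was high in 2 mice. RF.SAAR mice 2 and 3 had 12.6 and 11.7 CPM, against 4.38 CPM in RF.SAAR mouse 1. The remaining 9 mice lay between 3.98 and 7.81 CPM. On the log2 scale the difference was 0.95 ± 0.36 in the regular-fat comparison (edgeR adjusted p = 0.258) and 0.011 ± 0.36 in the high-fat comparison (edgeR adjusted p = 0.995). The difference between these was not called, with an interaction of -0.94 (95% interval -2.05 to 0.17, edgeR adjusted p = 0.999). Leaving out RF.SAAR mouse 1 gave a log2 fold change of 1.30 in the regular-fat comparison (edgeR adjusted p = 0.0492). On log2(TPM + 1) Cidec was called in the regular-fat comparison, at 0.93 (limma adjusted p = 0.0228). It was called there over both fat levels too, at 0.52 (limma adjusted p = 0.0160). Counts were divided between transcripts holding 49.5% and 41.5% of the total.

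Cidea (ENSMUSG00000024526), the CIDE gene of brown fat that also appears in fatty liver, was near the limit of detection. RF.Ctrl mice had 1, 2 and 9 counts, HF.Ctrl mice 4, 0 and 3, and HF.SAAR mice 5, 3 and 21. RF.SAAR mice had 1, 22 and 112 counts. The count of 0 in HF.Ctrl mouse 2 allows up to 3 counts as counting error alone, or 0.141 CPM by library size without the TMM factor. Cidea was thus above 20 counts in 3 mice, all under SAAR, while the other 3 SAAR mice were at the level of the controls. Those 3 mice alone brought Cidea past the filter, so its fitted log2 fold change in the regular-fat comparison, 3.31 (edgeR adjusted p = 0.298), is given as a description only. It was 1.38 at the lowest when a mouse was left out.

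Markers of brown adipocytes were high in the mice with the most Cidea and in 1 other mouse, and 0 of the 3 tested were called in any SAAR comparison. Of the 4 markers (Ucp1, Cox8b, Cox7a1, Dio2), the mitochondrial uncoupling protein Ucp1 was at 0 in 3 mice and reached 18.75 CPM, and Dio2 was at 0 in 1. Their summed level was 1.67 to 3.49 CPM among RF.Ctrl mice, 1.37 to 32.4 in RF.SAAR, 0.784 to 2.36 in HF.Ctrl and 1.69 to 17.85 in HF.SAAR. The highest sums were in RF.SAAR mouse 3 (32.4 CPM), HF.SAAR mouse 3 (17.85), HF.SAAR mouse 1 (10.55) and RF.SAAR mouse 2 (8.76), which include the 3 mice with the most Cidea, while HF.SAAR mouse 1 had 5 Cidea counts. The 8 white adipocyte markers were summed to 19.8 to 30.8 CPM among RF.Ctrl mice, 21.4 to 81.6 in RF.SAAR, 19.4 to 46.2 in HF.Ctrl and 29.05 to 46.55 in HF.SAAR, and of these Lep was at 0 in 6 mice and Aqp7 in 1. RF.SAAR mouse 3 had the highest sum of both lists. The part of adipose RNA in Cidea, in Cidec and Plin4, which adipocytes also express, and in the other members, Cd36 included, was not tested. Without RF.SAAR mouse 3 the log2 fold changes over both fat levels were 1.17 for Plin4 and 1.09 for Plin5 (edgeR adjusted p = 0.0676 and 0.0677). They were 1.29 and 1.06 with all mice. Hsd17b13 and Cd36 stayed called without that mouse. The Plin4 and Plin5 calls were lost equally without HF.Ctrl mouse 1, HF.SAAR mouse 1, RF.SAAR mouse 2, HF.Ctrl mouse 3 or RF.Ctrl mouse 3.

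**Figure D3:**
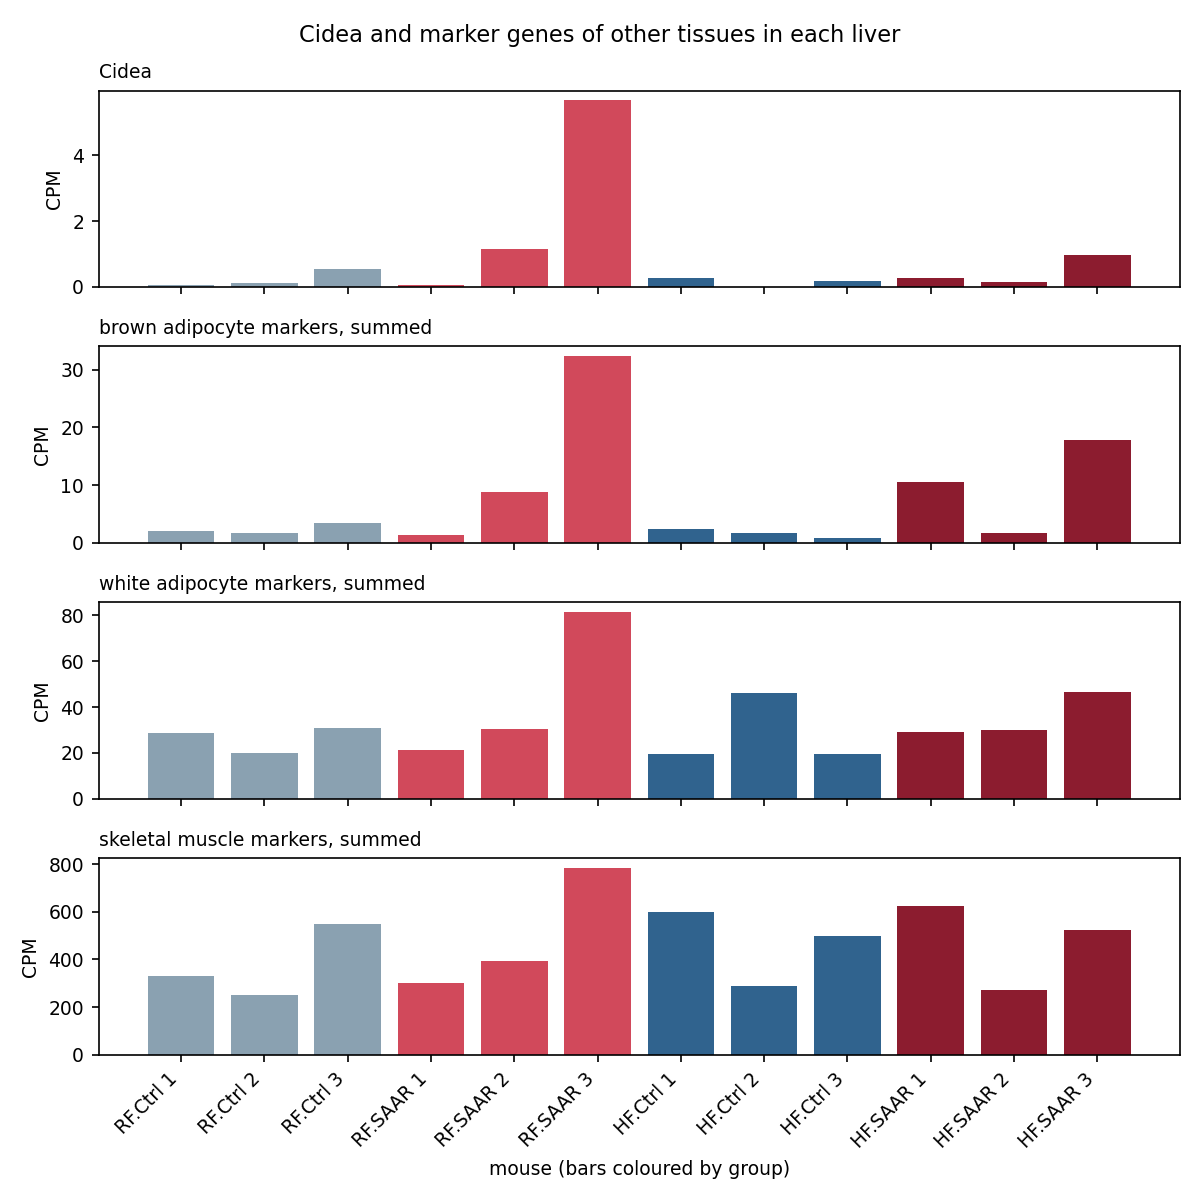
CPM per mouse (y axis, linear from 0; 12 mice on the x axis, coloured by group) for Cidea and for the summed markers of brown adipocytes, white adipocytes and skeletal muscle. RF.SAAR mouse 3 has the tallest bar in each of the 4 panels, at 5.69 CPM for Cidea and 32.4 CPM for the brown adipocyte markers.

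Pnpla2 (ENSMUSG00000025509, chr7:141455198-141460743, plus strand) had positive log2 fold changes under SAAR that did not pass the test. RF.Ctrl mice had 71.2, 62.8 and 64.8 CPM and RF.SAAR mice 74.4, 115 and 94.7 CPM. HF.Ctrl mice had 68.6, 99.2 and 49.3 CPM and HF.SAAR mice 88.1, 107 and 86.7 CPM. The regular-fat groups were apart, and in the high-fat groups HF.Ctrl mouse 2 lay among the HF.SAAR mice. On the log2 scale the difference was 0.51 ± 0.22 (edgeR adjusted p = 0.330) in the regular-fat comparison, 0.38 ± 0.22 (edgeR adjusted p = 0.545) in the high-fat comparison and 0.44 ± 0.15 (edgeR adjusted p = 0.121) over both. Without HF.Ctrl mouse 2 the log2 fold change over both fat levels was 0.59 and was called (edgeR adjusted p = 0.0157). That mouse also had 4123 CPM of pancreatic markers, while HF.SAAR mouse 3, with 12200 CPM of them, had the lowest Pnpla2 of its group. With the pancreatic signal as a covariate Pnpla2 was called at a log2 fold change of 0.49 (edgeR adjusted p = 0.0490). The part of pancreatic RNA in Pnpla2 was not tested. Of the Pnpla2 counts, 68.1% were assigned to a transcript annotated as subject to nonsense-mediated decay, so the counts do not equal the level of coding mRNA.

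G0s2 (ENSMUSG00000009633, chr1:193272161-193273217, minus strand), the inhibitor of that lipase, was the most scattered of the well-expressed members. RF.Ctrl mice had 59.7, 69.4 and 8.78 CPM and RF.SAAR mice 29.7, 152 and 67.0 CPM. HF.Ctrl mice had 28.6, 66.0 and 32.7 CPM and HF.SAAR mice 23.6, 135 and 21.3 CPM. Each group held at least 1 mouse more than 2-fold from another, and the coefficient of variation was 48.2% to 108%. The log2 fold change over both fat levels was 0.67 with an interval of -0.94 to 2.28 (edgeR adjusted p = 0.684) and neither direction was resolved at this spread. It was -0.039 at the lowest when a mouse was left out. The ratio of G0s2 to Pnpla2 in TPM was 0.324 to 2.57 in RF.Ctrl, 1.01 to 3.27 in RF.SAAR, 0.887 to 1.72 in HF.Ctrl and 0.598 to 2.96 in HF.SAAR. These ranges overlapped between all groups.

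Several members moved together from mouse to mouse within a group. RF.SAAR mouse 1 was the lowest of its group in 9 of 10 members, and RF.SAAR mouse 2 the highest in 7. HF.Ctrl mouse 2 was the highest of its group in 7 members and HF.Ctrl mouse 3 the lowest in 7. The 10 genes share each library and its scaling, so these counts are a description of mice and not 10 separate observations. Between RF.SAAR mice 1 and 2, Plin2 went from 497 to 999.9 CPM and G0s2 from 29.7 to 152 CPM, while Hsd17b13 went from 607 to 689 CPM and Cd36 from 69.2 to 76.3 CPM.

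**Figure D4:**
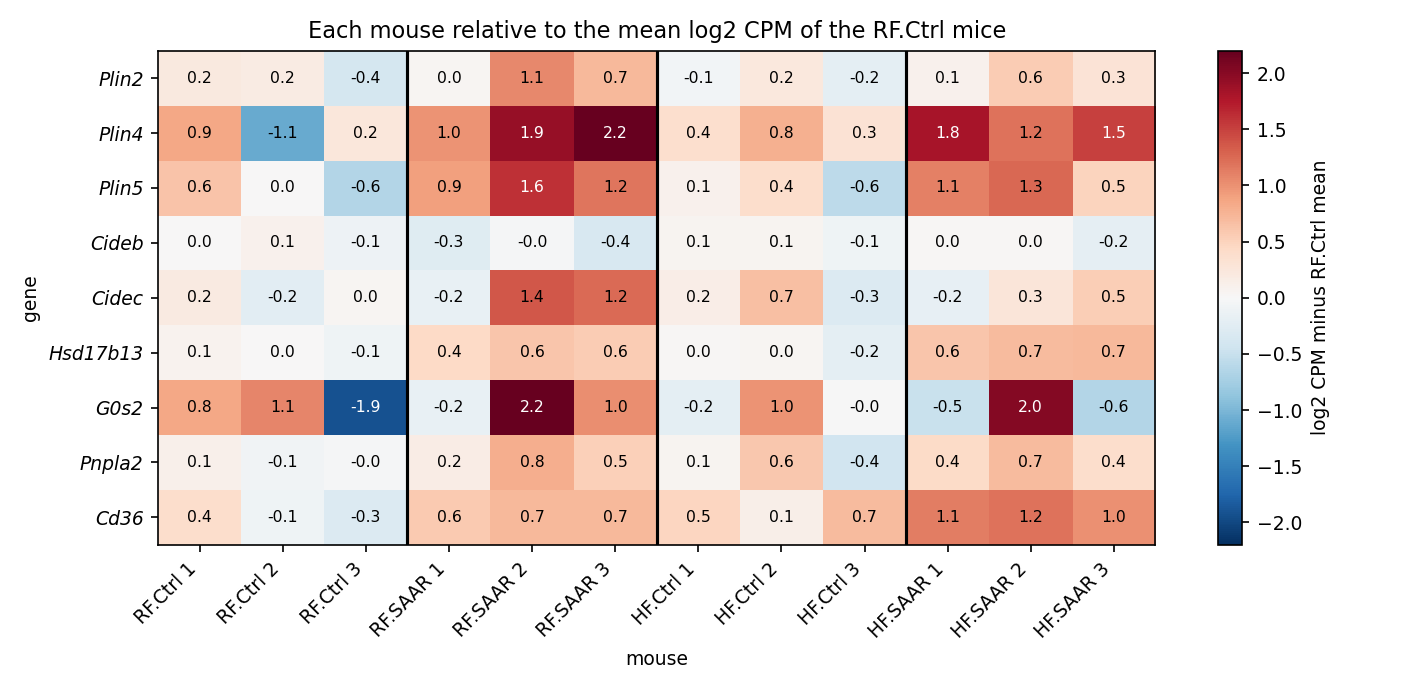
Log2 CPM of 9 genes (rows; Cidea is left out because of its count of 0) in 12 mice (columns), each minus the mean log2 CPM of the RF.Ctrl mice, from blue (lower) to red (higher). Hsd17b13 and Cd36 are even within the SAAR groups, while RF.SAAR mouse 1 is paler than mice 2 and 3 in most rows.

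Dietary fat was compared to ask whether 7 days of high-fat feeding moved the same genes. No member was called in HF.Ctrl vs. RF.Ctrl, in which edgeR called 0% of features higher and 0% lower, with 552 features and 1 member (Cd36) at an unadjusted p below 0.05. DESeq2 called 5 features higher and 26 lower and limma on log2(TPM + 1) called 2, none of them members. In HF.SAAR vs. RF.SAAR none was called, against 0.0199% of features called higher and 0.0266% lower, and again only Cd36 had an unadjusted p below 0.05. Averaged over both diets none was called, against 0.0133% called higher and 0.0266% lower, and Cd36 was the 1 member with an unadjusted p below 0.05. For Plin2 the log2 fold change of HF vs. RF was -0.18 (95% interval -0.56 to 0.19), and for Hsd17b13 it was 0.041 (95% interval -0.10 to 0.19). A rise of Hsd17b13 by fat of the size seen with SAAR therefore lies outside its interval.

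The interaction of diet and fat, which asks whether SAAR acted differently at the 2 fat levels, was called for no member, against 0.00664% of features called higher and 0% lower in edgeR's test, where 482 features had an unadjusted p below 0.05. None of the 10 was among those, and DESeq2 and limma called no member. The intervals were wide for most members. For Hsd17b13 the interaction was 0.19 (95% interval -0.10 to 0.48), for Plin5 -0.20 (95% interval -1.32 to 0.91) and for Plin4 -0.57 (95% interval -1.91 to 0.77).

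Of 15 further droplet proteins tested, 1 was called higher over both fat levels and none lower, with a median log2 fold change of 0.0012 against -0.0040 over all features. The list had 3 called higher and none lower with library size alone, with or without effective-length offsets, 4 and none on log2(TPM + 1), and 1 and 1 with DESeq2. The gene called was Plin3, the perilipin found in most tissues, with mean CPM of 34.1 in RF.Ctrl, 45.8 in RF.SAAR, 36.0 in HF.Ctrl and 49.4 in HF.SAAR. Its log2 fold change was 0.44 ± 0.075 (edgeR adjusted p = 0.00367), and it was called in the high-fat comparison too (edgeR adjusted p = 0.0436). Perilipins called under SAAR over both fat levels were thus Plin3, Plin4 and Plin5. Over all features, 475 were called higher and 553 lower in the main fit, and 2288 and 278 with library size alone. The totals were 2051 and 196 with effective-length offsets added to library size alone, 3455 and 145 on log2(TPM + 1), and 710 and 678 with DESeq2. Counts in the gene lists here and below stand against these totals.

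Of 16 genes for other lipases and their regulators, 15 were tested, and over both fat levels none was higher and 2 were lower, with a median log2 fold change of -0.033. Aadac, an esterase of the endoplasmic reticulum, fell by 0.43 ± 0.066 on the log2 scale (edgeR adjusted p = 0.00187). Ces1d, a carboxylesterase that mobilises triglyceride for lipoprotein assembly, fell by 0.44 ± 0.086 (edgeR adjusted p = 0.00787). Ces1d had a mean of 268 CPM in RF.Ctrl, 275 in RF.SAAR, 232 in HF.Ctrl and 122 in HF.SAAR, and it was called lower in the high-fat comparison (log2 fold change -0.92, edgeR adjusted p = 0.00149) and in HF.SAAR vs. RF.SAAR (-1.17, edgeR adjusted p = 0.00404). Its interaction, -0.96, was not called (edgeR adjusted p = 0.314). Both genes were also called with DESeq2 and with library size alone, but not on log2(TPM + 1), where Aadac was at -0.14 (limma adjusted p = 0.278) and Ces1d at -0.15 (limma adjusted p = 0.270). Ces1d was not called either with effective-length offsets and library size alone (edgeR adjusted p = 0.0871). Over the list, 3 genes were called higher and 2 lower with library size alone, 3 and 1 with effective-length offsets added, 3 and 3 with DESeq2, and 4 and none on log2(TPM + 1). Ces1d belongs to a cluster of similar genes, so the division of reads among them is uncertain. Abhd5, the activator of the lipase that Pnpla2 encodes, had a log2 fold change of -0.34 ± 0.10 over both fat levels (edgeR adjusted p = 0.0766).

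Of 13 triglyceride synthesis genes, 12 were tested and 2 were higher over both fat levels, with none lower and a median log2 fold change of -0.00071. Gpat3, which adds the opening fatty acid to glycerol phosphate, rose 1.43 ± 0.24 on the log2 scale from a low level, with means of 2.98 CPM in RF.Ctrl, 9.69 in RF.SAAR, 4.92 in HF.Ctrl and 11 in HF.SAAR (edgeR adjusted p = 0.00381). Agpat3 rose by 0.28 ± 0.074 (edgeR adjusted p = 0.0372). Of 15 genes for fatty acid uptake, binding and activation, none was higher and 3 were lower, with a median of -0.12. Slc27a5, which activates bile acids and fatty acids, fell by 0.43 ± 0.066 (edgeR adjusted p = 0.00186) and was called at both fat levels. Acsl5 fell by 0.38 ± 0.060 (edgeR adjusted p = 0.00222) and Acsl1 by 0.32 ± 0.077 (edgeR adjusted p = 0.0255), both of which join coenzyme A to long-chain fatty acids. On log2(TPM + 1) none of these 3 was called, with Slc27a5 at -0.13, Acsl5 at -0.15 and Acsl1 at 0.0029 (limma adjusted p = 0.346, 0.308 and 0.982), and Acsl1 was not called with library size alone either (edgeR adjusted p = 0.146). With effective-length offsets and library size alone, again none of the 3 was called (edgeR adjusted p = 0.0697, 0.0623 and 0.330). That list had 2 genes called higher with library size alone, with or without these offsets, and 3 on log2(TPM + 1). Gpat3 was called under each scale, and Agpat3 lost its call with effective-length offsets beside TMM factors (log2 fold change 0.28, edgeR adjusted p = 0.0766). Synthesis genes called higher numbered 1 under that setting, 3 with library size alone and 4 on log2(TPM + 1). Of all features, 353, 2288 and 3455 were called higher under these settings in turn.

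Of 16 PPARalpha targets outside the members, 5 were higher and 1 was lower over both fat levels, with a median log2 fold change of 0.20. The counts were 5 and 2 with DESeq2, and 8 and none with library size alone, with or without effective-length offsets. On log2(TPM + 1) they were 11 and none. All features called higher and lower went from 475 and 553 in the main fit to 2288 and 278 with library size alone. On log2(TPM + 1) those totals were 3455 and 145. Cyp4a14, a fatty acid omega-hydroxylase, rose from 29.4 to 802 CPM between RF.Ctrl and RF.SAAR and stood at 61.3 and 550 CPM in HF.Ctrl and HF.SAAR, with a log2 fold change of 3.97 ± 0.50 over both fat levels (edgeR adjusted p = 0.00280). Fgf21, a hormone of the starved liver and also a target of ATF4, rose by 4.07 ± 0.54 (edgeR adjusted p = 0.00283). Cyp4a10 rose by 1.85 ± 0.29 (edgeR adjusted p = 0.00613), and Pdk4 and Ehhadh were the other 2 called higher. Acsl1, counted above as well, was the 1 called lower. Cyp4a10 and Cyp4a14 have close relatives in the genome, so the division of reads among them is uncertain. The 5 genes called higher were also called with library size alone, with DESeq2 and on log2(TPM + 1). Of 15 transcription factors and cofactors of lipid storage, Ppargc1a (0.79 ± 0.16, edgeR adjusted p = 0.0114) and Nr1i3 (0.58 ± 0.15, edgeR adjusted p = 0.0435) rose and Srebf1 fell by 0.80 ± 0.16 (edgeR adjusted p = 0.0126), with a median of -0.043. That list had 4 higher and 1 lower with library size alone, 3 and 1 with DESeq2, and 5 and 1 on log2(TPM + 1). By fat level alone, no gene of these lists was called in HF.Ctrl vs. RF.Ctrl, where 0% of all features were called. In HF vs. RF averaged over both diets, Ces1d was called lower, against 0.0266% of all features. Its log2 fold change there was -0.69 (edgeR adjusted p = 0.0165).

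The genes whose log2 CPM followed each member most closely over the 12 mice were listed as a description, since all mice share the diet groups. For Hsd17b13 they were Htatip2, Pir and Cyp39a1, with Pearson's r of 0.98, 0.98 and 0.97. For Plin5 they were Lamtor1, Sbds and Elmod3 (r = 0.97, 0.96 and 0.94), and for Cd36 Zfand5, Rab30 and Cnot2 (r = 0.93, 0.93 and 0.91). For Plin4 they were Idh3a, Ttc1 and Senp2 (r = 0.92, 0.91 and 0.90). Pnpla2 was closest to Pcbp1, Cdc34 and Clta, each at r = 0.96. Cidea was closest to Enpp4, Supt16 and Ucp1 (r = 0.92, 0.88 and 0.88). No 2 of the 10 members were among each other's 3 closest genes.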

How the data were processed

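Liver RNA of 12 mice was poly-A selected and sequenced in pairs of reads. Per the study's methods and the submitters' processing notes, reads were checked with FastQC, trimmed with cutadapt and assigned to transcripts with kallisto on an Ensembl annotation. The deposited values are estimated counts, effective lengths and TPM per transcript, made by the authors with no replicates pooled. The strand setting is not given in the sources used here.

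Estimated counts were summed per gene after 116816 of 118489 transcripts were matched to GENCODE names on GRCm38, and rounded. The 1673 unmatched transcripts held 1.08% of counts and were kept as features of their own. edgeR 4.0.16 (R 4.3.3) was fitted once to all 12 mice by quasi-likelihood with robust estimation, TMM factors (0.8576 to 1.111) and filterByExpr, leaving 15061 features, 391 of them unmatched transcripts. The 7 comparisons were SAAR against Ctrl within each fat level and as their mean, HF against RF within each diet and as their mean, and the interaction, each adjusted over all features at a threshold of 0.05. limma 3.58.1 and DESeq2 1.42.0 served as alternatives. The scripts were tested on simulated data. Depth was 16203094 to 21230092 estimated counts per mouse, and limits from counts cover counting error only. Named genes were the 10 members, the called genes of the gene lists, and the 3 genes closest to a member by Pearson's r. Abhd5 was named after its value was seen. Members and lists were chosen with earlier results of these data known. Groups came from the labels, and mice were numbered within a group in accession order.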

Additional observations from a re-analysis of the deposited data

How the results depend on the processing

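No paired analysis was possible because the labels give no replicate numbers, and mice were numbered in accession order. Of 1780 log2 fold changes of members under alternatives, 1696 were counted as unchanged, 27 lost and 41 gained a call, and 16 reversed. A change of sign was counted as a reversal only where the main or the alternative value lay further than its SE from 0. Smaller sign changes are among the 1696, as for G0s2 in HF.SAAR vs. HF.Ctrl, which ranged from -0.93 to 0.96 under alternatives. The alternatives without the 5 mice of high pancreatic signal, on log2(TPM + 1) and with effective-length offsets and library size alone were chosen after seeing the data. The fit without those 5 mice left HF.Ctrl mouse 3 and HF.SAAR mouse 1 alone in their groups. Its calls count in the totals above but are not listed below. The causes of the changes were not tested. Calls for the most abundant transcript of each member came from a fit of all transcripts, adjusted over 36098 features against 15061 in the main fit. In RF.SAAR vs. RF.Ctrl, where 1 member was called, 3 were called with library size alone, 4 with DESeq2 and 0 for the most abundant transcript. There were 7 by limma on log2(TPM + 1), 4 with effective-length offsets and library size alone, and 2 at adjusted p under 0.1. Leaving out a mouse gave 0 to 2. Of all features, those called higher numbered 87 in the main fit, 360 with library size alone and 267 with DESeq2. They numbered 484 by limma, 218 with effective-length offsets and library size alone, and 24 in the fit of all transcripts. In HF.SAAR vs. HF.Ctrl, with again 1 member called, 2 were called with library size alone and 2 with the compared groups alone. DESeq2 called 3 and limma 6. With effective-length offsets and library size alone 3 were called, and 2 at adjusted p under 0.1, with 1 to 2 on leaving out a mouse. Features called higher there numbered 144 in the main fit, 702 with library size alone and 95 with the compared groups alone. They numbered 325 with DESeq2, 1617 by limma, and 813 with effective-length offsets and library size alone. Over both fat levels, 4 members called became 2 with no low-count filter, 1 for the most abundant transcript and 7 by limma. They became 6 with library size alone, with or without effective-length offsets, 6 with DESeq2 and 5 with the pancreatic covariate. Leaving out a mouse gave 2 to 5. Features called higher went from 475 to 418 with no low-count filter, 3455 by limma, 2288 with library size alone and 2051 with offsets added. DESeq2 called 710 higher, the covariate fit 536 and the fit of all transcripts 236. The 4 comparisons of fat and interaction kept 0 members called under every alternative run.

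Each reversal was in a comparison where that member was not called. Cideb turned to 0.049 by limma within regular fat (RF.SAAR vs. RF.Ctrl). Within high fat (HF.SAAR vs. HF.Ctrl) it turned to 0.12 with library size alone, 0.28 by limma and 0.18 with effective-length offsets and library size alone. Over both fat levels Cideb turned to 0.035, 0.16 and 0.067 under the same 3 settings. By limma it was -0.14 in HF.Ctrl vs. RF.Ctrl and -0.027 in HF vs. RF, where Hsd17b13 was -0.075. Pnpla2 in HF vs. RF was -0.16 with the pancreatic covariate and -0.24 without the mice of high pancreatic signal, which gave -0.36 in HF.Ctrl vs. RF.Ctrl. The Cd36 interaction was -0.62 for the most abundant transcript, -0.21 without RF.Ctrl mouse 1 and -0.46 without the mice of high pancreatic signal. Mean TPM moved by more than 1 SD in 7 of 40 values when rescaled by TMM. With 3 mice a group, members with the spread of G0s2 or the counts of Cidea allow no direction.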
